A study of Mus musculus with 12 samples.

Results

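In embryonic mouse eyelids, 10 array probes stayed low at E14.5 and E15.5 (stages in days of embryonic development) and then read a higher signal at E16.5, in wild type more than in the Tabby mutant. These 10 are the members described here, out of 42006 probes on the array and 32981 that entered the statistical fit. They were chosen by their measured values in these same arrays, namely a rise after E15.5 in wild type, a smaller rise in Tabby and little genotype difference before. Their rises and their genotype differences are therefore a description, for which no test is given. All 10 passed the filter on dim probes, which asks for both arrays of at least 1 group to be well above background. At E16.5 all of them met it, and 6 also met it in an earlier group, while Z00070958-1, Z00060172-1, Z00058211-1 and Z00031819-1 passed through E16.5 alone.

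Tabby is a mutation of Eda, the gene of ectodysplasin, a ligand of the tumour necrosis factor family made by ectodermal epithelium. Ectodysplasin binds the receptor Edar and activates NF-kB through the adaptor Edaradd, and without it hair, teeth, sweat glands and the Meibomian glands form poorly or not at all. Meibomian glands are the oil glands of the eyelid rim, and they begin as epithelial buds. The series was set up to look for genes that depend on Eda during the development of these glands. The deposited files give the members an identifier in place of a gene symbol, list them as unmapped and unknown, and the gene table used here holds none of these identifiers, so no member is tied to a gene, a position or a function.

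The sequence is what identifies a member, so all 10 probes are shown, each 60 bases long, 5′ to 3′, in order of how little of the wild-type rise Tabby made after normexp and loess. Capitals mark the 36 bases that Z00026043-1 and Z00060172-1 share, at the start of the former and the end of the latter. These probes overlap and are not separate measurements, so the 10 members stand for 9 distinct stretches of transcript at most.
Z00070958-1: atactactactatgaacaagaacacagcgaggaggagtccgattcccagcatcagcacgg
Z00042935-1: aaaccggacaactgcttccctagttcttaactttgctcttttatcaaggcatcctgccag
Z00076003-1: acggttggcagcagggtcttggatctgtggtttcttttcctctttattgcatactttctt
Z00031819-1: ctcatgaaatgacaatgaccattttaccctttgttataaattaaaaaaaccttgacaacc
Z00058211-1: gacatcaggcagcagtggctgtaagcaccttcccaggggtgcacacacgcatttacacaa
Z00077432-1: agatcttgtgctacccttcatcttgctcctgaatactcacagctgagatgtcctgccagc
Z00043843-1: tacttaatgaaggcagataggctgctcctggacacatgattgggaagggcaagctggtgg
Z00026043-1: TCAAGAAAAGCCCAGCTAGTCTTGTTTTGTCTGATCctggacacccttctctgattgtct
Z00060172-1: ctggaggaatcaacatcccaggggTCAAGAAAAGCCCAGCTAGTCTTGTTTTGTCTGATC
Z00024515-1: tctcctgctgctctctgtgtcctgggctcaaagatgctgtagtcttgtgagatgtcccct
The guanine and cytosine content of the members had a median of 49.2% and ran from 30% in Z00031819-1 to 55% in Z00058211-1, against a median of 45% over all probes tested. As whole 60-base sequences, 0 of the 10 were found in the RefSeq promoter windows (build GRCm38.p6) on either strand.

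Each of 6 groups (wild type and Tabby mutant at each of the stages E14.5, E15.5 and E16.5) had 2 arrays, which the labels call biological replicates, of strain C57BL6/J in both genotypes. Eyelids were microdissected, and how many embryos gave a sample, and of which sex, is not given in the sources used here. Although the labels' treatment protocol describes skin of the footpad and later ages, every title, source and tissue label gives eyelids, which the groups follow. On every array the eyelid sample was labelled with Cy3 (green), and a reference pool of cell line RNA with embryonic stem cell RNA was labelled with Cy5 (red). Values are log2 ratios of eyelid over reference unless a channel is named, so 1 unit is a doubling. In whole eyelids, fewer cells of a type and less RNA per cell cannot be told apart. The 4 arrays of a stage shared a slide, wild type at positions 1 and 2 and Tabby at 3 and 4, so stage cannot be told apart from slide, nor genotype from position. Of all probes, 71.1% to 79.1% had an eyelid signal well above background, and 0 eyelid spots were saturated. With so few arrays a group, their number sets how precise any value can be.

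In every member the wild-type E16.5 mean was the highest of the 6 groups and the Tabby E16.5 mean the second. Both Tabby E16.5 arrays lay above all 8 earlier arrays in all 10 members, so the ratio was higher at E16.5 than before in Tabby too. The median rise from E15.5 to E16.5 was 3.05 in wild type, with members from 1.56 to 4.40, and 1.64 in Tabby, with members from 0.37 to 3.80. Over all 32981 probes tested the median change was -0.01 in both genotypes. The Tabby rise was 23.6% to 86.4% of the wild-type rise on the log2 scale, with a median of 55%. These shares depend on the processing, since the start of the rise was dim in several members and the background offset draws dim ratios towards 0. With Feature Extraction's own ratio they ran from 35.2% to 110%, with a median of 71%. Another 396 probes rose by at least 1 after E15.5 in wild type and by less than 1 before. Their median share was 80.3% (quartiles 61.7% and 93%). Both sets were chosen on these same arrays, the members for a smaller rise in Tabby, so the medians only describe the choice.

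**Figure D1:**
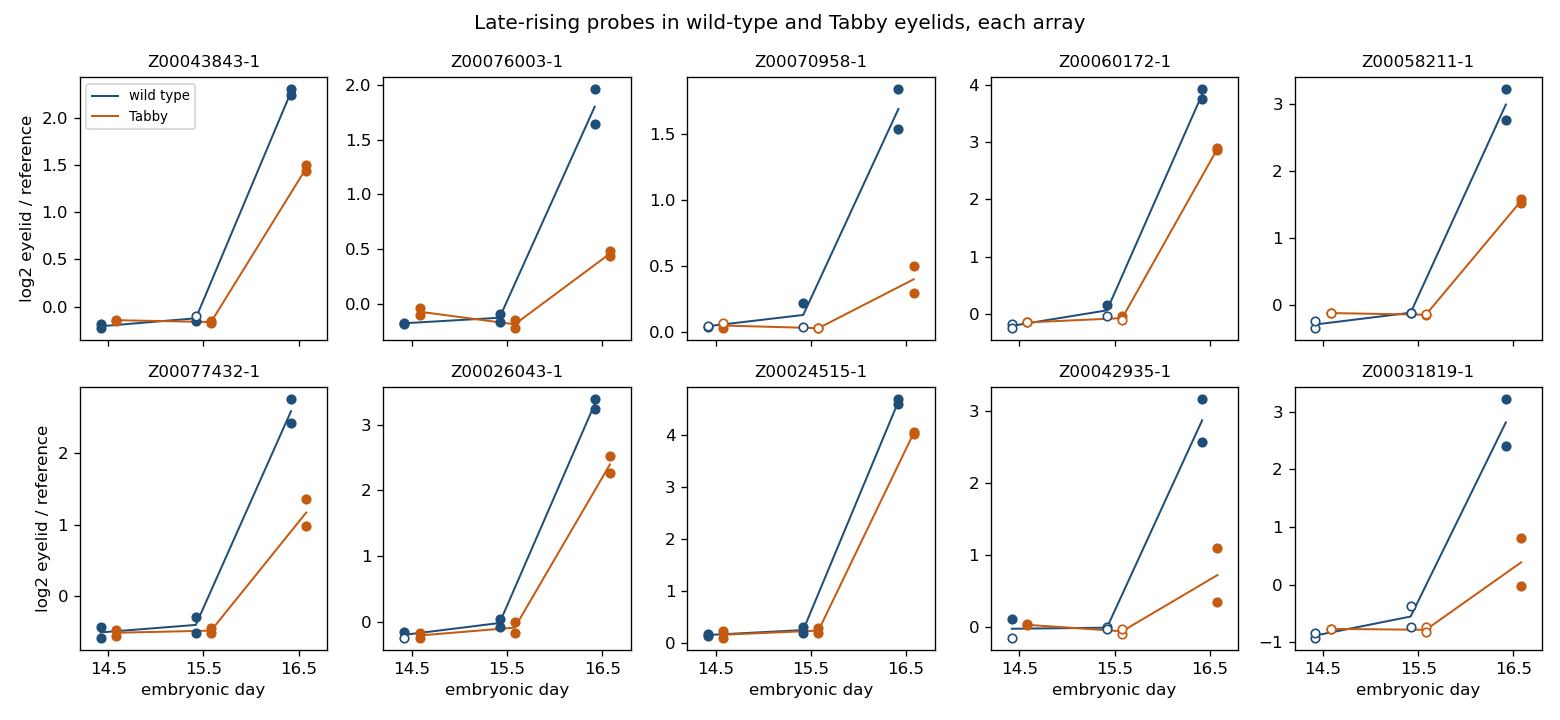
Log2 ratio of eyelid over reference for each of the 10 probes (1 panel each, with its own vertical scale) against embryonic day. Each point is 1 array, lines join the means of 2 arrays, blue is wild type and orange is Tabby (shifted sideways to keep them apart), and open points were not well above background in the eyelid channel. In every panel both genotypes stay low until E15.5 and the wild-type arrays lie above the Tabby arrays at E16.5.

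Before the rise the groups were close. The median genotype difference (Tabby minus wild type) of the members was 0.06 at E14.5, with members from -0.01 to 0.17, and -0.06 at E15.5, with members from -0.23 to -0.01. At E14.5 both Tabby arrays lay above both wild-type arrays in 5 members, as in 20% of all probes tested, and at E15.5 both lay below in 4 members, as in 14.3% of all. A probe is named as called below when its adjusted p in the limma fit over all probes tested was under 0.05. At E14.5 and at E15.5 limma called 0 probes of either direction, while 793 and 2210 had an unadjusted p under 0.05. From E14.5 to E15.5 the members' median change was 0.10 in wild type and -0.02 in Tabby. In that interval 1 member, Z00060172-1, was called higher in wild type, where 8.44% of all probes were called higher.

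A low signal limits what these early values can show. In the eyelid channel the members were well above background in 24 of 40 readings at E14.5, 24 of 40 at E15.5 and 40 of 40 at E16.5. On all 8 earlier arrays 3 members were well above background (Z00076003-1, Z00077432-1 and Z00024515-1), 6 were on some of them and 1, Z00031819-1, was on none. Any early genotype difference in the last 7 could lie below what the arrays measure. Among the first 3, Z00076003-1 and Z00077432-1 were also dim on the earlier arrays.

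At E16.5 both Tabby arrays lay below both wild-type arrays in all 10 members, as in 14.3% of all probes tested. The median difference was -1.31, with members from -2.43 to -0.61, against a median of 0 over all probes. All 10 were among the 26 probes (0.0788% of those tested) called lower in Tabby at E16.5, while 1 probe was called higher, so 96.3% of the calls were lower (80% with a normexp offset of 10). The 26 became 65 with the eyelid channel alone, 14 with median centring, 4 with offset 10 and 0 with processed signals, Feature Extraction's ratio or the authors' values. Leaving out 1 array gave 3 (Tabby E16.5 replicate 1) to 69 (wild-type E16.5 replicate 2), with 40 without either wild-type E15.5 array, 15 without either Tabby E15.5 array, and 6 or 7 without any 1 of the E14.5 arrays. From E15.5 to E16.5 all 10 were called higher in wild type, where 8.58% of all probes were, and 8 were called higher in Tabby, where 7.77% were. The 2 not called in Tabby were Z00070958-1 and Z00042935-1. The genotype difference was called lower at E16.5 than its mean over both earlier stages in 5 members, which were the only probes called (0.0152% of those tested). Since these contrasts chose the members, the counts only describe the choice. The count of members called lower at E16.5 was 3 without Tabby E16.5 replicate 1, and 5 without wild-type E16.5 replicate 1 or without any 1 of the 4 arrays of E14.5. It was 0 with Feature Extraction's processed signals, its ratio, the authors' values or only the 4 arrays of that stage.

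**Figure D2:**
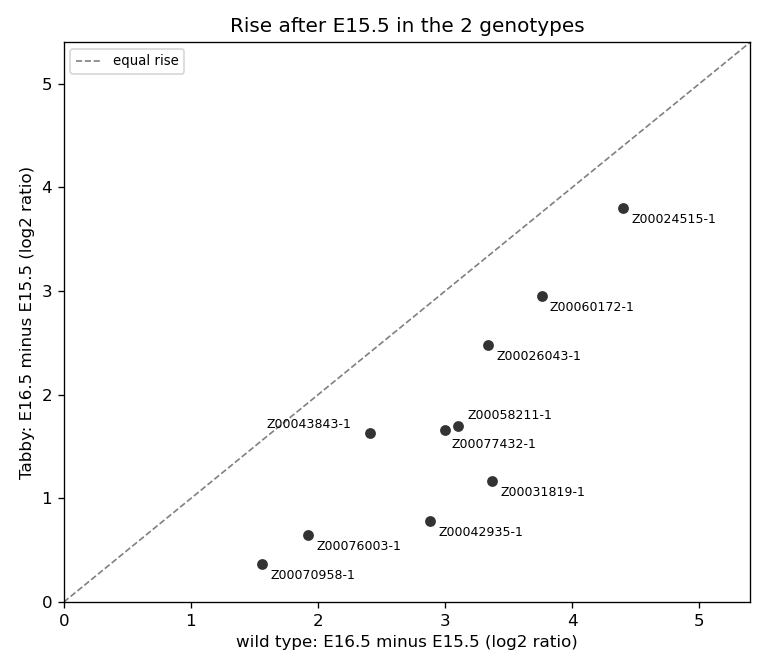
Change in log2 ratio from E15.5 to E16.5 in Tabby (vertical axis) against wild type (horizontal axis), 1 point per probe, each from the means of 2 arrays per group. The dashed line marks an equal rise, and all 10 points lie below it, from Z00070958-1 at 1.56 and 0.37 to Z00024515-1 at 4.40 and 3.80.

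With normexp and loess, 4 members had a Tabby rise of 23.6% to 34.7% of the wild-type rise. Of these, Z00042935-1 and Z00031819-1 were not well above background on any E15.5 array. Z00070958-1 was so on 1 of 2 E15.5 arrays in each genotype, and Z00076003-1 was so on both but dim. None of the 4 shares is firm. With Feature Extraction's ratio the rises of Z00031819-1 were 6.79 in wild type and 4.91 in Tabby, which takes it out of the lowest 4. Those of Z00042935-1 were 3.88 and 2.48, and those of Z00070958-1 were 2.54 and 0.89. Z00070958-1 had log2 ratios of 0.04 and 0.05 in wild type at E14.5, 0.04 and 0.22 a day later and 1.84 and 1.54 at E16.5. In Tabby it had 0.03 and 0.07, then 0.03 and 0.03, then 0.50 and 0.30. The wild-type arrays of E16.5 stand far above the other 10, and the Tabby arrays of E16.5 clear the highest earlier array by 0.08. The rise was 1.56 in wild type and 0.37 in Tabby, and the difference at E16.5 was -1.29 (SE 0.11, n = 2 a group), 2.44-fold. Its signal was dim at first, and neither wild-type array of E14.5 was well above background. In the eyelid channel the wild-type signal of E16.5 was 3.54-fold that of E14.5, a size that is not firm.

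Z00042935-1 showed one of the widest gaps between the genotypes. In wild type it had -0.16 and 0.10 at E14.5, 0.00 and -0.03 a day later and 3.16 and 2.57 at E16.5. In Tabby it had 0.03 and 0.02, then -0.10 and -0.03, then 0.34 and 1.09. The E16.5 groups are apart by 1.48, yet the Tabby replicates also differ from each other, the second reading more than the first. The means at E16.5 were 2.86 ± 0.41 for wild type against 0.71 ± 0.54 for Tabby (SD, n = 2), a 4.43-fold difference. At E15.5 no array was well above background, so the size of the rise is not firm. In the eyelid channel it was 17.5-fold in wild type and 1.88-fold in Tabby. On the ratio scale it was 7.37-fold and 1.72-fold.

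Z00076003-1 was measured well above background on all 12 arrays. Its early signal was still dim, with processed eyelid signals of 43.5 to 74.7, so the offset draws its early ratios towards 0. Wild type gave -0.17 and -0.18 at E14.5, -0.09 and -0.16 a day later and 1.96 and 1.64 at E16.5. Tabby gave -0.10 and -0.04, then -0.22 and -0.15, then 0.48 and 0.44. After normexp and loess the 8 early readings lie within 0.19 of each other, and only the last stage separates the genotypes clearly. The difference at E16.5 was -1.34 (SE 0.093, n = 2 a group), 2.53-fold, with a Tabby rise 33.6% of that in wild type. This share is not firm, since with Feature Extraction's ratio the rises were 2.70 in wild type and 1.47 in Tabby.

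Z00031819-1 had the largest genotype difference of the members on the ratio scale and was not well above background on any earlier array. Its wild-type ratios were -0.93 and -0.84 at E14.5, -0.37 and -0.74 a day later and 3.22 and 2.41 at E16.5. Its Tabby ratios were -0.77 and -0.77, then -0.74 and -0.83, then -0.03 and 0.80. Replicates of both genotypes spread widely at E16.5, by 0.81 in wild type, while the gap between the groups was 1.61. The E16.5 means were 2.82 ± 0.58 and 0.39 ± 0.59 (SD, n = 2), a difference of -2.43 (SE 0.3), 5.39-fold. In the eyelid channel the rise from E15.5 was 16.3-fold in wild type and 2.29-fold in Tabby. For these folds, E15.5 signals below the dimmest one well above background were raised to it. On the ratio scale the rise was 10.4-fold and 2.25-fold, and with so dim a start these sizes are not firm.

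With the same processing, Tabby made 54.7% to 67.8% of the wild-type rise in 3 members. Z00058211-1 rose in wild type to 3.22 and 2.76 at E16.5, from -0.34 and -0.23 at E14.5 and -0.11 on both arrays of E15.5. In Tabby it reached 1.53 and 1.58, from -0.12 and -0.11 and then -0.15 and -0.13. Tabby replicates were almost equal at E16.5, and the wild-type ones differed by 0.46. The difference was -1.43 (SE 0.12, n = 2 a group), 2.70-fold. The start was dim for Z00058211-1, since neither wild-type array of E14.5 and neither Tabby array of E15.5 was well above background. Feature Extraction's ratio gave it a smaller difference, -0.91, and larger rises, with 3.48 for Tabby against 5.01 for wild type. So neither its share nor the size of its difference is firm.

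Z00077432-1, well above background on all 12 arrays, began with less eyelid than reference signal. Its early signal was dim, with processed eyelid signals of 31.7 to 44.3, so the offset draws its early ratios towards 0. Wild type had -0.59 and -0.43 at E14.5, -0.29 and -0.52 a day later and 2.76 and 2.42 at E16.5. Tabby had -0.47 and -0.56, then -0.45 and -0.52, then 0.98 and 1.36. The early ranges of the genotypes overlap at both stages, and the E16.5 groups are 1.06 apart. The difference at E16.5 was -1.42 (SE 0.15, n = 2 a group), 2.68-fold. With Feature Extraction's ratio the difference was -1.15 and the rises were 4.13 in wild type and 2.88 in Tabby, so the share is not firm.

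Z00043843-1 was the member with the least spread between replicates at E16.5 in wild type. Its wild-type ratios were -0.19 and -0.23 at E14.5, -0.10 and -0.15 a day later and 2.31 and 2.25 at E16.5. In Tabby they were -0.14 and -0.15, then -0.18 and -0.15, then 1.44 and 1.5. The genotypes at E16.5 are 0.75 apart, against 0.06 between the wild-type replicates. On the log2 scale the rise was 2.41 in wild type and 1.63 in Tabby, and 4.24 and 3.1 with Feature Extraction's ratio. The start was dim, with wild-type E15.5 replicate 1 not well above background, so the size of the rise is not firm.

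In the last 3 members most of the rise was present in Tabby, 74.5% to 86.4% of it. The overlapping probes Z00026043-1 and Z00060172-1 gave similar values on the same arrays. Z00026043-1 reached 3.39 and 3.24 in wild type and 2.27 and 2.52 in Tabby at E16.5, and its 8 earlier readings ran from -0.25 to 0.04 with a median of -0.16. Z00060172-1 reached 3.92 and 3.74 in wild type and 2.90 and 2.86 in Tabby, from earlier readings of -0.24 to 0.16 with a median of -0.12. Their genotype differences were -0.92 and -0.95, and -0.59 and -0.35 with Feature Extraction's ratio. In the eyelid channel the signal of Z00060172-1 at E16.5 was 29.4-fold that of E14.5 in wild type, and 9.6-fold in Tabby. Here too, E14.5 signals below the dimmest one well above background were raised to it. No E14.5 array was well above background for it, so these sizes are not firm.

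Z00024515-1 was well above background on all 12 arrays and had the largest wild-type rise and the smallest genotype difference after normexp and loess. This order does not hold with Feature Extraction's ratio, where Z00031819-1 rose by 6.79 and Z00058211-1 by 5.01 in wild type against 4.35 here, and Z00060172-1 differed by -0.35 against -0.57. Wild type had 0.16 and 0.14 at E14.5, 0.19 and 0.30 a day later and 4.60 and 4.69 at E16.5. Tabby had 0.09 and 0.22, then 0.19 and 0.28, then 4.02 and 4.05. The rise was 21.1-fold in wild type and 14-fold in Tabby, and the E16.5 groups are 0.55 apart with replicates within 0.09. The difference was -0.61 (SE 0.067, n = 2 a group), 1.53-fold.

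The channels taken singly gave a different size for these changes. The reference was 1 RNA pool on all arrays, yet its signal rose with that of the eyelid in the members that rose most. For Z00024515-1 the processed eyelid signal went from 851 and 1050 in wild type at E15.5 to 127000 and 71100 at E16.5, and the processed reference signal on the same spots went from 762 and 904 to 5610 and 2980. In Tabby the eyelid signal went from 1140 and 1100 to 21600 and 31700, and the reference signal from 1070 and 955 to 1370 and 2020. So the reference reading was highest on the spots where the eyelid reading was highest. After normalisation the change of this probe from E15.5 to E16.5 was 6.64 in the eyelid channel and 2.24 in the reference channel in wild type, and 4.41 and 0.61 in Tabby.

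**Figure D3:**
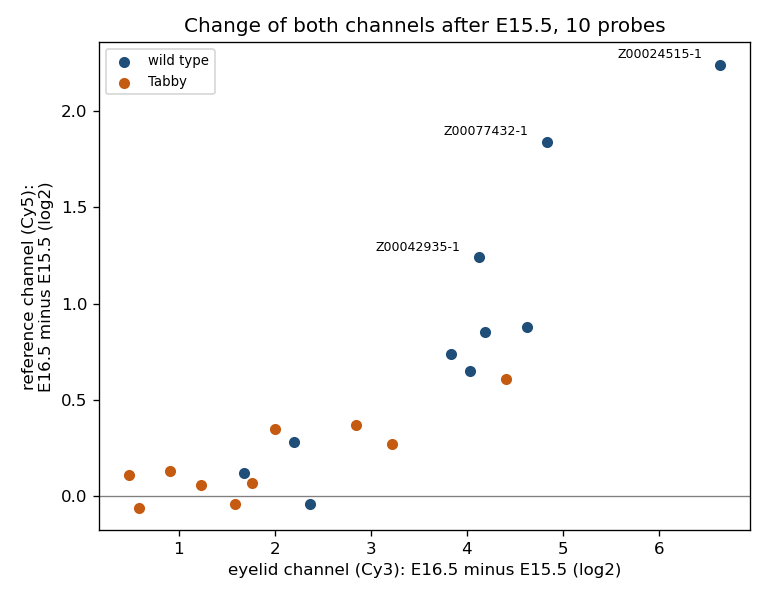
Change from E15.5 to E16.5 in the reference channel (vertical axis, log2) against the eyelid channel (horizontal axis, log2) for the 10 probes, blue in wild type and orange in Tabby, each point from means of 2 arrays per group. The largest changes of both channels are 6.64 and 2.24, in Z00024515-1 in wild type. The order of the 2 channels is not the same throughout, as for Z00060172-1 (4.63 and 0.88) and Z00042935-1 (4.13 and 1.24) in wild type.

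The same was seen beyond the members. Of 67 other tested probes whose eyelid channel rose by at least 3 in wild type, 61 (91%) had a rise in the reference channel. Their median reference change was 1.23 beside a median eyelid rise of 4.17. Over all tested probes outside the members, 39.9% had a rise in the reference channel, and the median reference change was -0.02. At E16.5 the reference channel was lower in Tabby than in wild type at 8 of the 10 members, by up to -1.51 in Z00077432-1. The share of all probes with a lower reference was not computed. Since the log2 ratio is the eyelid less the reference channel, the eyelid channel necessarily differed more than the ratio at those 8 members. The differences in the eyelid channel were -3.26 for Z00042935-1, -3.00 for Z00031819-1, -2.93 for Z00077432-1 and -2.08 for Z00024515-1. The corresponding ratio differences were -2.15, -2.43, -1.42 and -0.61. Z00043843-1, whose reference signal moved little, gave -0.79 and -0.81. The part of the reference channel in the genotype differences was not tested.

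Wild-type replicates at E16.5 were less alike in the eyelid channel than in the ratio at all 10 members. Replicate 1 read higher than replicate 2 in that channel in each of them, by a median of 0.79 and by up to 1.65 in Z00042935-1. On the ratio scale it was the highest of the 4 E16.5 arrays in 9 members, the exception being Z00024515-1. Tabby replicate 1 was the lowest array in 7 members and Tabby replicate 2 in 3. The eyelid channel of the genotypes did not overlap in any of the 10, with gaps from 0.71 in Z00043843-1 to 2.06 in Z00042935-1. Since the members were chosen on the E16.5 difference in these arrays, this only describes the choice. The share over all probes was not computed for the eyelid channel or for the order of the replicates. The median SD of the members' ratios was 0.22 in wild type and 0.093 in Tabby at E16.5, against 0.02 to 0.079 in the earlier groups, while over all probes tested the median SD was 0.038 to 0.066 in every group. The fit pools the spread of all 6 groups, so its SE is smaller than the spread at E16.5 alone for members such as Z00031819-1.

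**Figure D4:**
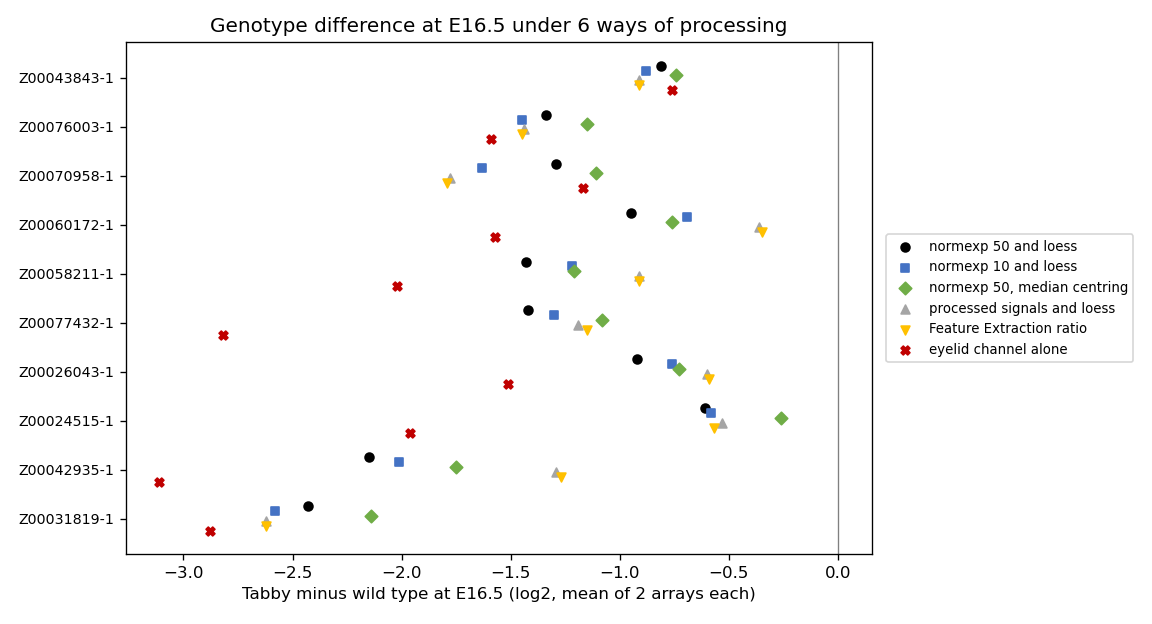
Tabby minus wild type at E16.5 (log2, means of 2 arrays per group) for each of the 10 probes under 6 ways of processing the same arrays. Every point lies below 0, and the size varies, as for Z00024515-1 from -1.96 with the eyelid channel alone to -0.26 with median centring.

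How the arrays were processed changed the size of the difference but not its sign in any member. With the eyelid channel alone, taken here without the loess step and with quantile normalisation between arrays, values differ slightly from the channel values above. The median difference of the 10 at E16.5 was -1.31 after normexp and loess, -1.10 with median centring, -1.03 with Feature Extraction's own ratio and -1.78 with the eyelid channel alone. The Tabby rise as a share of the wild-type rise had a median of 55%, 57.9%, 71% and 41.5% under these. That of the other late-rising probes was 80.3%, 76.1%, 84.6% and 82.9%, a contrast that again describes how the sets were chosen. With Feature Extraction's ratio Z00060172-1 no longer rose less in Tabby, at 4.12 against 3.74 in wild type, whereas the overlapping Z00026043-1 did, at 3.26 against 3.97. Z00060172-1 was not well above background on some arrays of E15.5 in both genotypes, which bears on the start of that rise.

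Some probes outside the 10 read the same or nearly the same sequence. Z00071819-1 has exactly the 60 bases of Z00070958-1 and was printed at another place on the array. Across the 12 arrays the 2 spots differed by a median of 0.04 and by 0.24 at most, and Z00071819-1 gave 1.83 and 1.53 in wild type and 0.74 and 0.26 in Tabby at E16.5. So the genotype difference at that sequence, -1.29 and -1.18, was read alike by separate spots of the same hybridisations. Z00026084-1 matches Z00026043-1 at 54 of 60 bases, shown here with mismatches in capitals because the likeness bears on whether they are separate measurements.
Z00026043-1: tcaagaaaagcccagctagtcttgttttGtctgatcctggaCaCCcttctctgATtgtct
Z00026084-1: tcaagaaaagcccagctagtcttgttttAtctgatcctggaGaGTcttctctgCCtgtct
Z00026084-1 was at 4.27 and 4.06 in wild type and 3.31 and 3.57 in Tabby at E16.5, a difference of -0.73.

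Z00031819-1, the member with the largest ratio difference, has close relatives on the array. Z00059773-1 matches it over a stretch of 49 bases with 43 identical, shown with mismatches in capitals for the same reason. It was compared after its values were seen.
Z00031819-1: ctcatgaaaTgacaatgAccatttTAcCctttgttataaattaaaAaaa
Z00059773-1: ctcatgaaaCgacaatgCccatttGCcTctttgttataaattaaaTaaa
Z00059773-1 was well above background on every array and had 3.97 and 3.27 in wild type and 0.31 and 1.47 in Tabby at E16.5, from -1.83 to -0.93 before in wild type. Z00041156-1 shares 30 of 35 bases and Z00055894-1 shares 24 of 26 with Z00031819-1, and their genotype differences at E16.5 were -2.48 and -1.60. The end of Z00041156-1 is identical to the start of Z00059773-1, so these probes overlap and are not separate measurements. Whether Z00031819-1 and its relatives read separate transcripts was not tested.

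Members resembled each other closely across the arrays, as their choice requires. Pearson correlations between pairs of members over the 12 arrays ran from 0.823 to 0.998 with a median of 0.966 over 45 pairs, and these arrays share slides and the reference pool. Z00058211-1 was nearest to the mean profile of the other 9 (r = 0.998) and Z00070958-1 the farthest (r = 0.937). Among 30122 other probes well above background on all E16.5 arrays and sharing no run of 20 bases with a member, the profiles most like the members' mean were those of Z00064871-1, Z00055894-1, Z00041156-1, Z00045346-1 and Z00028942-1, with r from 0.9924 to 0.994 over 12 arrays. Of these, Z00055894-1 and Z00041156-1 are relatives of Z00031819-1 in sequence, as given above. Z00064871-1 had group means of -0.11, -0.04 and 4.78 in wild type and -0.08, -0.11 and 2.27 in Tabby at the 3 stages. Its difference at E16.5, -2.51, was larger than that of any member, and of the 5 only Z00055894-1 was called lower in Tabby. Z00028942-1 showed the same shape on a small scale, rising by 0.53 in wild type and 0.29 in Tabby.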

How the data were processed

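Each of 12 two-colour arrays gave a spot intensity per channel, deposited by the authors as Agilent Feature Extraction 9.5.1.1 output, per the file headers. Its processed signals are intensities already background-subtracted and dye-normalised, and, per the file headers, its ratio is the log10 of Cy5 over Cy3. The authors' value table, deposited on a log10 scale with 41999 rows, had column medians of 2.33 to 2.35. Its scale, centring and direction are not given in the sources used here. Each column correlated at r = 1 with the log10 processed eyelid signal less the deviation of the log10 reference signal from its probe mean.

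Intensities were corrected in limma 3.58.1 (R 4.3.3) by normexp with offset 50, which shrinks folds of dim probes, and normalised by loess with 1417 control spots at weight 0. Outlier spots were left out, and spots of a probe were averaged. Probes well above background on both arrays of a group entered a fit of 6 group means with eBayes (2-sided, Benjamini-Hochberg). The fit was tried on simulated data in which a probe had the same spread on all arrays. That leaves out the members' wider spread at E16.5, so it does not show how the calls behave there. Folds from groups not well above background use the eyelid channel after loess and between-array scaling (Aquantile). They compare the bright group with the dim group's own signal, or with the dimmest signal well above background where that was higher. They are not lower bounds on the change in ratio, since the reference channel also rose on these spots. They are open to dye bias, since no dyes were swapped. The members and lists were chosen with earlier results of these data known. All members are named. The 5 most similar probes follow a rule by correlation, and the sequence comparison and channel values were added after values were seen. Gene lists could not be used, as no probe has a gene name. Alternatives covered background correction, normalisation, channel, filter, arrays in the fit, array weights, pairing and each array left out.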

Additional observations from a re-analysis of the deposited data

Results flagged for a closer look

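In 5 of the 10 probes the fit over all probes called a difference between stages in the genotype effect, taken as the difference (Tabby minus wild type) at E16.5 less its mean at E14.5 and E15.5. The values were -0.83 for Z00043843-1, -1.36 for Z00076003-1, -1.24 for Z00070958-1, -0.91 for Z00060172-1 and -1.5 for Z00058211-1 on the log2 scale. Limma called 5 probes in all (0.0152% of those tested), so each of them was among the 10. The probes were chosen for this pattern, and these values are given as a description. The other 5 members had values from -2.37 to -0.61. The count was 8 without wild-type E16.5 replicate 2 and 0 without Tabby E16.5 replicate 1, without either Tabby E15.5 array or without any 1 of the 4 arrays of E14.5. It was 2 without wild-type E15.5 replicate 1 and 3 without Tabby E16.5 replicate 2.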

How the results depend on the processing

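Each of the 10 probes kept a lower value in Tabby at E16.5 under every alternative that tested it (22 or 23 each), whereas the calls did not all hold, from 4 lost for Z00043843-1, Z00076003-1 and Z00070958-1 to 15 for Z00024515-1. Medians below are over the 10 and on the log2 scale. With normexp offset 10, 4 were called lower at E16.5 and 0 for stage dependence, and the medians were 0.13 for the E14.5 difference, 0.23 and 3.42 for the successive wild-type changes and 2.26 for the late Tabby rise. With processed signals and loess both counts were 0, with medians of 0.14 and -1.05 for the E14.5 and E16.5 differences, 0.25 and 4.06 in wild type and 0.12 and 3.17 in Tabby. With Feature Extraction's ratio, and equally with the authors' values, both counts were 0, the differences were 0.15, 0.03 and -1.03 at the successive stages, the late wild-type rise was 4.05 and the Tabby changes were 0.1 and 3.18. Median centring gave -1.1 at E16.5, late rises of 2.48 and 1.42, and a stage dependence of -1.02 with 0 called. The eyelid channel alone gave -1.78 at E16.5, wild-type changes of 0.01 and 3.91, a late Tabby rise of 1.53, and a stage dependence of -1.82 with 1 called. The cause was not tested.

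With only the 4 arrays compared in the fit, 0 were called lower at E16.5. Among probes well above background on all 12 arrays only 3 members are left; all 3 were called lower at E16.5 and higher in both genotypes, 1 for stage dependence, and their early Tabby change was 0.03. With a replicate block by stage and number, 5 were called lower at E16.5 and 0 for stage dependence. Deviations of same-numbered arrays correlated at -0.072, 0.019 and 0.242 at the successive stages, the highest at E16.5. The main fit did not pair arrays by number, and whether they are paired was not tested.

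When 1 array was left out, the count called lower ran from 3 to 10 and that for stage dependence from 0 to 8. The late rise was called in 10 members throughout in wild type and in 7 to 9 in Tabby. The medians ran from 0.05 to 0.06, -0.07 to -0.04 and -1.47 to -1.16 for the differences at the successive stages, 0.1 to 0.15 and 2.85 to 3.25 for wild-type changes, -0.02 to 0.01 and 1.53 to 1.69 for Tabby changes, and -1.45 to -1.14 for stage dependence. A slide term could not be fitted apart from stage, since each stage had its own slide. Signal not well above background on some or all early arrays limits the early values of 7 members. Early signals of Z00076003-1 and Z00077432-1 were dim too.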
